A study of Homo sapiens with 24 samples.

Results

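The genes described here are 41 genes of amino acid handling, taken by name from the deposited count table of 58721 genes. They are 20 cytosolic tRNA synthetases, 10 enzymes of amino acid synthesis and one-carbon metabolism, 5 amino acid transporters and 6 regulators around the transcription factor ATF4. All 41 symbols were present in the table. A filter on low counts left 38 of them for testing in RT112 cells and 39 in SCaBER cells. CBS had 0 counts in each of the 24 libraries; it has a near-identical annotated copy, CBSL, and how shared reads were treated is not known. ASNS, asparagine synthetase, had 0 to 9 counts and was tested in neither line. Cell lines usually express this enzyme, and why its counts were so low was not tested. ALDH1L2 had 0 to 1 count in RT112 and was tested in SCaBER alone.

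Transcripts were counted by 3′ RNA-seq, whose reads come from near the polyadenylated end, in RT112 and SCaBER. RT112 is a luminal papillary (LumP) and SCaBER a basal/squamous (Ba/Sq) bladder cancer cell line, grown with 10% FBS in RPMI and in DMEM. Each line received 6 siRNA treatments by lipid transfection: a control siRNA (siControl), either of 2 siRNAs against ZBED2 (siZBED2-1, siZBED2-2), 1 siRNA against FOXA1 (siFOXA1), or siFOXA1 with either ZBED2 siRNA (siFOXA1+siZBED2-1, siFOXA1+siZBED2-2). Each of the 12 groups held 2 libraries, whose numbers the labels call an experiment batch. FOXA1 encodes a pioneer factor that marks luminal urothelium and ZBED2 a zinc finger protein found in keratinocytes. Each FOXA1 result rests on 1 siRNA sequence. No separate cultures are described beyond the batch number, so p-values measure the spread between these libraries. In bulk samples fewer cells of a type and less RNA per cell cannot be told apart.

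Cytosolic tRNA synthetases join amino acids to their tRNAs for protein synthesis, each for a given amino acid, and EPRS serves a pair of them. When amino acids run short or proteins misfold, kinases of the integrated stress response phosphorylate the initiation factor eIF2, bulk translation slows, and translation of the ATF4 mRNA increases. ATF4 then pairs with C/EBP proteins on composite sites and activates synthetases, enzymes of serine and asparagine synthesis, transporters, and its own downstream factors DDIT3, ATF3 and TRIB3. Since ATF4 is set largely by translation, its mRNA level need not follow its activity. WARS, the tryptophan synthetase, is known for another input as well, interferon-gamma.

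The shared core of the C/EBP-ATF site is TGATGNAA, or TTNCATCA on the other strand. All 41 genes matched RefSeq, and 32 had a promoter in the RefSeq table on GRCh38.p14, each entry spanning 250 bases before to 50 bases after 1 transcript start. A gene may have several entries. For GARS, TARS, SLC3A2, SLC1A5 and ASNS the core was found at a transcript start inside the gene as RefSeq bounds it. The core was found on either strand in 13 of these 32 genes (40.6%), against 1217 of 27305 genes with a promoter (4.46%). By role it was found in 7 of 16 synthetases, 1 of 6 enzymes, 3 of 4 transporters and 2 of 6 regulators. The list was assembled around amino acid handling and the ATF4 axis, so that share describes the list and is no independent test. Of 13 members with a promoter that were called higher with siZBED2-1 in SCaBER 7 held the core (53.8%), against 6 of the 19 other members (31.6%), a difference that was not tested. Below are the sites of those 7, the genes that hold the core and were higher with siZBED2-1 in SCaBER on at least 1 of 2 backgrounds, 5′ to 3′ on the strand of the gene, with the core in capitals.
AARS (chr16:70289676-70289703, minus strand): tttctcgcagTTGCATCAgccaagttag
CARS (chr11:3057408-3057435, minus strand): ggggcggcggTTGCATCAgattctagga
GARS (chr7:30594835-30594862, plus strand): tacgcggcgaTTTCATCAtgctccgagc
SLC3A2 (chr11:62881726-62881748, plus strand): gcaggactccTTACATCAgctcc
SLC7A1 (chr13:29595664-29595691, minus strand): ggcgcactgcTGATGAAAcctggcgccg
SLC1A5 (chr19:46784894-46784921, minus strand): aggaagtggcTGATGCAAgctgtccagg
CHAC1 (chr15:40953252-40953279, plus strand): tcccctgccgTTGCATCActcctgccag
AARS, CARS and CHAC1 carry the letters TTGCATCA and SLC1A5 their reverse complement. In SLC3A2 and SLC7A1 the core lies after the start used by the promoter entry, by 37 and 7 bases. A match is a description of the letters, and binding of a factor was not measured here.

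Total counts ran from 4425404 to 6119210 per library, and 3 counts were worth 0.480 to 0.681 CPM (read counts scaled to library size, with TMM factors within a line). Such floors cover counting error only. Mitochondrial transcripts took 8.21% to 22.7% of counts and were highest in the RT112 libraries with siFOXA1, and their part in the results below was not tested. Under siControl the 8 luminal markers summed to 3062 to 3097 CPM in RT112 and 827 to 842 CPM in SCaBER, with KRT20 at 0 in both, and the 8 basal markers to 496 to 569 and 3292 to 3463 CPM. The 6 markers of blood, vessel and stromal cells summed there to at most 10.8 CPM, with PTPRC, CD3E and PDGFRB at 0. Most of the SCaBER luminal sum under siControl was KRT18, with 4002 and 3723 counts. FOXA1 fell with siFOXA1 in RT112 (log2 fold change -2.36 ± 0.38 SE, adjusted p = 5.68e-05). In SCaBER FOXA1 was near the detection limit, with 20 and 28 counts under siControl and 4 and 6 under siFOXA1 (log2 fold change -2.09, adjusted p = 0.272); averaged over 3 backgrounds it fell (-2.85, adjusted p = 0.00870). ZBED2 fell with siZBED2-1 by -3.97 in RT112 and -1.96 in SCaBER on the log2 scale (adjusted p = 0.00624 and 0.00848), while siZBED2-2 gave -1.52 and -0.61 (adjusted p = 0.903 and 0.844). ZBED2 also fell with siFOXA1 in RT112 (log2 fold change -2.48, adjusted p = 0.0325). It had 27 and 7 counts there, against 9 and 7 with siZBED2-1 added and 12 and 4 with siZBED2-2 added. FOXA1 in RT112 had 34 and 44 counts under siFOXA1, 19 and 56 with siZBED2-1 added and 71 and 47 with siZBED2-2 added. The part of these target levels in the RT112 results on siFOXA1 was not tested. The 3′ ends of SLC1A5, SHMT2, MTHFD2, HARS and SLC7A11 overlap genes on the other strand, as do the 3′ ends of WARS, LARS and ALDH1L2. MARS and DDIT3 overlap each other. Strand was detected automatically in the counting, so reads of such pairs may not be fully parted.

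**Figure D1:**
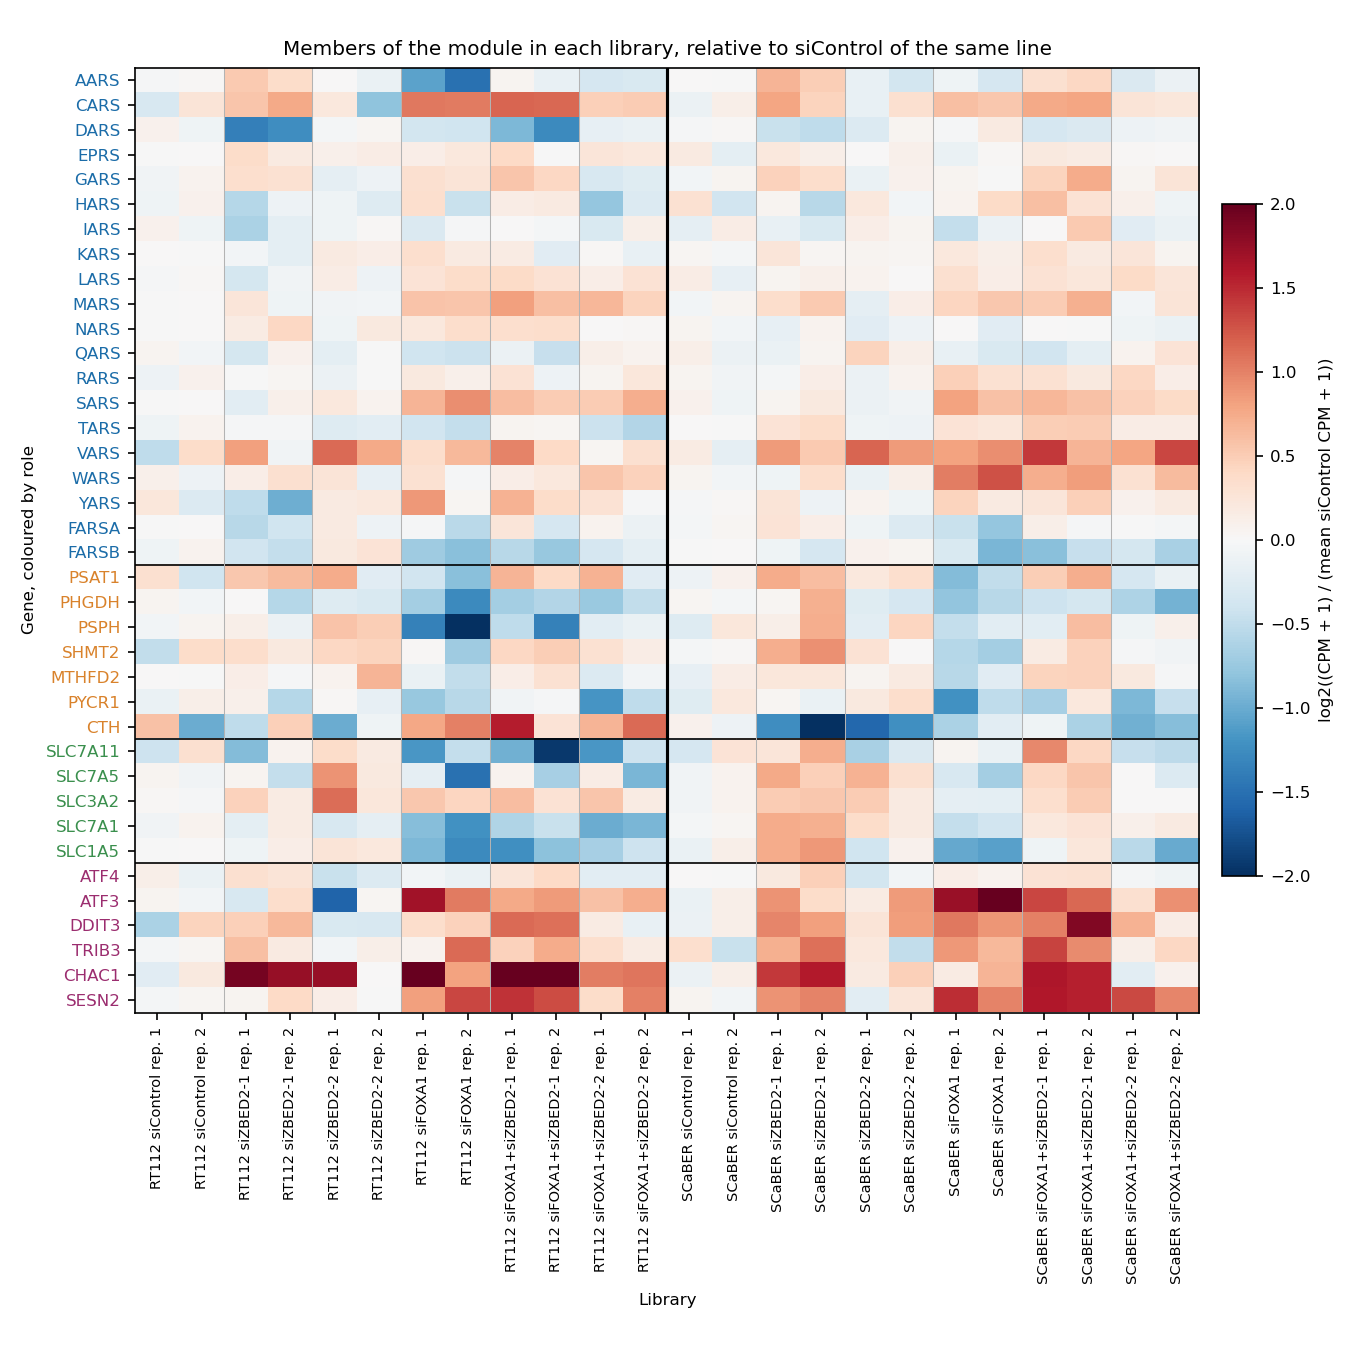
Expression of 38 members (ASNS, ALDH1L2 and CBS are left out) in the 24 libraries, as log2 of CPM + 1 minus log2 of the mean siControl CPM + 1 of the same line; colours saturate at 2 in either direction. Gene names are coloured by role, from synthetases (top) through enzymes and transporters to the ATF4 axis (bottom). SLC1A5 is blue in each RT112 library with siFOXA1, and CHAC1 is red in each library with siZBED2-1 in both lines.

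Before any FOXA1 or ZBED2 siRNA, most of these genes stood higher in SCaBER. The lines also differ in medium, RPMI for RT112 and DMEM for SCaBER. With 1 line of each subtype, line, subtype and medium cannot be told apart, here or in later comparisons of the lines. Under siControl 27 of 39 members differed between the lines, 22 higher in SCaBER and 5 lower, where 33.6% of all 14823 genes tested differed (edgeR quasi-likelihood test, Benjamini-Hochberg adjusted p under 0.05). With 1 library left out at a time the count was 22 to 24, and 21 members were called in each of the 4 such fits. With limma on the deposited TPM 22 were higher and 1 lower. Among the 20 synthetases 12 were higher in SCaBER and QARS was lower, and the median log2 difference was 0.66. SARS, the serine synthetase, had 95.8 and 97.8 CPM in RT112 and 518 and 461 CPM in SCaBER (log2 difference 2.32 ± 0.14, adjusted p = 2.89e-15). WARS had 42.2 and 36.5 CPM against 175 and 162 CPM (2.08 ± 0.18, adjusted p = 3.50e-11). TARS, AARS, EPRS and GARS were higher in SCaBER by 1.17, 1.39, 1.12 and 1.07. CARS, DARS, KARS, MARS, NARS and YARS were the other synthetases higher in SCaBER, by 0.64 to 1.25. QARS lost its call without the second SCaBER or the first RT112 siControl library (-0.56 and -0.64), and MARS without the second SCaBER one (0.60).

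Among the enzymes the lines differed in both directions. PSAT1, which makes phosphoserine, had 13.6 and 7.89 CPM in RT112 and 97.3 and 111 CPM in SCaBER (log2 difference 3.28 ± 0.29). CTH, which makes cysteine from cystathionine, had 9 and 0 counts in RT112 and 246 and 203 counts in SCaBER (5.51 ± 0.70, adjusted p = 1.12e-07). With so few RT112 counts its size is imprecise, from 4.43 to 10.76 over the other settings and left-out libraries, the highest where the RT112 library left is at 0. PYCR1, a proline synthesis enzyme, ran the other way, with 43.9 and 52.5 CPM in RT112 and 11.3 and 16.0 CPM in SCaBER (-1.84 ± 0.34). MTHFD2, called higher in SCaBER by 0.51, lost its call with the replicate number as a block (adjusted p = 0.0664) and in 3 of the 4 fits with a library left out. PHGDH, lower in SCaBER by -0.70, passed in none of those 4 (-0.65 to -0.75). The transporters split likewise. SLC3A2, the heavy chain that carries SLC7A5 and SLC7A11 to the membrane, was higher in SCaBER by 1.33 ± 0.19, as were SLC7A5 and SLC7A11 (1.47 and 1.93), while the arginine carrier SLC7A1 and the glutamine carrier SLC1A5 were lower (-0.63 and -0.80). SLC7A1 was not called without the first SCaBER or the second RT112 library (-0.59 and -0.56). ATF4 itself had 153 and 128 CPM in RT112 and 240 and 239 CPM in SCaBER (0.75 ± 0.14, adjusted p = 5.95e-05). CHAC1, a glutathione-degrading enzyme induced through ATF4, was at 2 and 5 counts in RT112 and 65 and 73 in SCaBER (4.21 ± 0.63, and 3.37 to 4.85 over the other settings and left-out libraries). TRIB3 and SESN2, also downstream of ATF4, were higher in SCaBER by 1.81 and 0.64, and SESN2 passed in none of the 4 fits with a library left out (0.57 to 0.70).

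These genes moved in both directions with siFOXA1. In RT112, siFOXA1 raised 5 and lowered 7 of 38 members (12 called, 31.6%), where 23.3% of all 13264 genes were called. In SCaBER it raised 8 and lowered 6 of 39, where 17.8% of all 13129 genes were called. The members' median log2 fold changes were 0.08 and -0.03, and over all genes no comparison had a median beyond 0.0159 in size. In both lines the enzymes and transporters called were lower and the ATF4 axis genes called were higher, while the synthetases split. Cell type markers moved with siFOXA1 too. In RT112 5 of 7 luminal markers tested fell and 1 rose, with their sum at 1948 to 2057 CPM against 3062 to 3097 under siControl. The luminal list holds FOXA1, the target of the siRNA, and FOXA1 is 1 of those 5. Of 7 basal markers in RT112 3 rose (722 to 797 against 496 to 569 CPM). The non-epithelial markers summed to 39.8 to 42.6 CPM against 6.61 to 10.8 CPM, where COL1A1 had 198 and 196 counts against 23 and 24, while PECAM1 fell to 0 and PTPRC and PDGFRB were at 0. In SCaBER 1 of 6 luminal markers fell and 1 of 8 basal markers rose and 1 fell, with the luminal sum at 497 to 559 against 827 to 842 CPM and the non-epithelial sum at 14.3 to 15.3 against 6.19 to 7.18 CPM. Most of that SCaBER luminal sum was KRT18, with 2367 and 1836 counts under siFOXA1 against 4002 and 3723 under siControl. The part of these shifts in the members' results was not tested. ATF4 mRNA did not pass the test (-0.09 ± 0.16 in RT112 and 0.10 ± 0.13 in SCaBER, adjusted p = 0.748 and 0.680).

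Of the 20 synthetases, 3 rose and 3 fell in RT112, and 5 rose and 2 fell in SCaBER. SARS rose in both lines. It went from 95.8 and 97.8 CPM to 156 and 185 CPM in RT112 (0.81 ± 0.17, adjusted p = 0.000709) and from 518 and 461 CPM to 854 and 733 CPM in SCaBER (0.70 ± 0.11, adjusted p = 1.73e-05). All siFOXA1 libraries lay above all siControl libraries of their line, and both calls held when any single library was left out. CARS, the cysteine synthetase, had 22.4 and 34 CPM under siControl and 59.3 and 58.9 CPM under siFOXA1 in RT112 (1.06 ± 0.28, adjusted p = 0.00713). In SCaBER it had 62.7 and 73.9 CPM against 105 and 99.3 CPM (0.58 ± 0.18, adjusted p = 0.0191). It was not called without the first siControl library of either line (0.80 in RT112 and 0.47 in SCaBER) or the first SCaBER siFOXA1 library (0.54). MARS, the methionine synthetase, rose by 0.57 and 0.49, but neither call held without any 1 of its 4 libraries (0.56 to 0.59 in RT112 and 0.43 to 0.54 in SCaBER). RARS, the arginine synthetase, rose in SCaBER (0.40 ± 0.13, adjusted p = 0.0245) but not without the second siControl or first siFOXA1 library (0.34 and 0.31). With the block VARS was called higher in SCaBER as well (0.94, adjusted p = 0.0434). MARS shares its 3′ end with DDIT3, as given above.

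FARSB, a subunit of the phenylalanine synthetase, fell in both lines, from 146 and 163 CPM to 94.1 and 86.4 CPM in RT112 (-0.78 ± 0.16, adjusted p = 0.000746) and from 127 and 127 CPM to 103 and 67.1 CPM in SCaBER (-0.57 ± 0.18, adjusted p = 0.0240). In SCaBER the second siFOXA1 library weighed on it, with -0.30 without that library (adjusted p = 0.429) and -0.58 and -0.57 without the first or second siControl library (adjusted p = 0.0691 and 0.0774). Its partner subunit FARSA fell in SCaBER (-0.61 ± 0.15, adjusted p = 0.00461), and had -0.46 without the second siFOXA1 library (adjusted p = 0.115). AARS, the alanine synthetase, fell in RT112, from 83.1 and 85.7 CPM to 39.6 and 29.2 CPM (-1.29 ± 0.20, adjusted p = 2.73e-05). In SCaBER AARS had 225 and 221 CPM against 210 and 177 CPM (-0.21 ± 0.14, adjusted p = 0.337). WARS, in contrast, was called in SCaBER. It went from 175 and 162 CPM to 343 and 407 CPM in SCaBER (1.16 ± 0.15, adjusted p = 4.83e-07), and from 42.2 and 36.5 CPM to 48.9 and 38.9 CPM in RT112 (0.16 ± 0.24, adjusted p = 0.693).

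The difference between the lines was tested directly. The log2 fold change with siFOXA1 was higher (more positive or less negative) in SCaBER than in RT112 for 3 of 39 members, where 2.58% of all 14823 genes differed: AARS by 1.09 ± 0.22 (adjusted p = 0.00389), TARS by 0.69 ± 0.16 (adjusted p = 0.0102) and WARS by 1.00 ± 0.25 (adjusted p = 0.0226). TARS, the threonine synthetase, fell in RT112 (-0.44 ± 0.14) and had 0.25 ± 0.10 in SCaBER (adjusted p = 0.0860, and 0.0468 with the block). Its RT112 call was lost without the second siControl library or either siFOXA1 library (-0.36 to -0.48). The second siFOXA1 library of RT112 weighed on all 3. Without it none passed, with AARS at 0.89 (adjusted p = 0.0613), TARS at 0.65 and WARS at 0.84 (adjusted p = 0.0728 and 0.143). Without the second SCaBER siControl library AARS alone passed, with TARS at 0.68 and WARS at 0.94. TARS also lost its call without the second RT112 siControl library (0.61), and WARS without the first RT112 siControl (0.90) or the second SCaBER siFOXA1 library (0.88).

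Enzymes of serine and glycine synthesis fell with siFOXA1, 2 in each line. In RT112 PHGDH, its first enzyme, went from 72.7 and 67.5 CPM to 43.3 and 28.4 CPM (-0.97 ± 0.24, adjusted p = 0.00472) and PSPH, its last, from 12.3 and 13.4 CPM to 4.43 and 1.29 CPM (-2.15 ± 0.54, adjusted p = 0.00433). Both calls were lost without the second siFOXA1 library (-0.69 and -1.53). In SCaBER PSAT1, the middle enzyme, went from 97.3 and 111 CPM to 56.9 and 74.2 CPM (-0.67 ± 0.17, adjusted p = 0.00346) and SHMT2, which takes serine to glycine in mitochondria, from 93.7 and 97.8 CPM to 64.4 and 59.7 CPM (-0.62 ± 0.17, adjusted p = 0.00618). PSAT1 was not called without the first siFOXA1 or second siControl library (-0.49 and -0.57), nor SHMT2 without the second siFOXA1 library (-0.57). PHGDH in SCaBER had -0.69 ± 0.25 (adjusted p = 0.0519, and 0.0398 with the block). None of the enzymes passed the test of the difference between the lines. No enzyme rose, and the median over the tested enzymes was -0.65 in RT112 (7 tested) and -0.63 in SCaBER (8 tested). In RT112 CTH had at most 23 counts in any library and carried no usable fold change.

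SLC1A5, the glutamine carrier ASCT2, fell by nearly the same amount in both lines. It went from 224 and 226 CPM to 120 and 92.9 CPM in RT112 (-1.08 ± 0.17, adjusted p = 3.03e-05) and from 119 and 142 CPM to 63.4 and 60.8 CPM in SCaBER (-1.07 ± 0.18, adjusted p = 3.37e-05), and both calls held without any single library. SLC7A1 fell in RT112, from 90.5 and 99.3 CPM to 52.1 and 40.4 CPM (-1.04 ± 0.20), and had -0.44 ± 0.18 in SCaBER (adjusted p = 0.0925). SLC7A5, the leucine carrier, fell in SCaBER from 127 and 139 CPM to 106 and 82.1 CPM (-0.50 ± 0.16), but not without the second siControl or second siFOXA1 library (-0.43 and -0.33). In RT112 SLC7A5 had -0.70 (adjusted p = 0.177) and SLC3A2 0.49 (adjusted p = 0.0987), both called with the block (adjusted p = 0.0146 and 0.0306). The cystine carrier SLC7A11 had 8.79 and 15.4 CPM against 4.83 and 8.38 CPM in RT112 and 37.2 and 57.1 CPM against 49.1 and 43.1 CPM in SCaBER, and passed in neither line. Its SCaBER groups overlapped.

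On the ATF4 axis, the stress genes ATF3 and SESN2 rose in both lines. ATF3, a stress-induced transcription factor, went from 8.79 and 8.07 CPM to 29.2 and 18.5 CPM in RT112 (1.5 ± 0.49, adjusted p = 0.0281) and from 11.3 and 13.8 CPM to 44 and 54.4 CPM in SCaBER (1.97 ± 0.31, adjusted p = 1.46e-05). SESN2, a leucine-binding inhibitor of mTORC1, went from 23.1 and 24.4 CPM to 42.8 and 61.7 CPM in RT112 (1.14 ± 0.28, adjusted p = 0.00337) and from 38.9 and 35.7 CPM to 105 and 75.5 CPM in SCaBER (1.28 ± 0.20, adjusted p = 1.25e-05). TRIB3, a pseudokinase that restrains ATF4, rose in SCaBER (0.78 ± 0.25, adjusted p = 0.0292). In RT112 ATF3 was not called without either siControl library or the first siFOXA1 library (1.13 to 1.56), nor SESN2 without the second siFOXA1 library (0.85). In SCaBER TRIB3 was not called without the first siFOXA1 or second siControl library (0.66 and 0.43), and DDIT3, the factor CHOP, was called with the block (1.07, adjusted p = 0.0432). CHAC1 was at 2 and 5 counts under siControl in RT112 and 29 and 9 under siFOXA1 (adjusted p = 0.0754 by edgeR and 0.0496 by DESeq2), and in SCaBER at 12.3 and 14.6 CPM against 15.1 and 22.0 CPM (adjusted p = 0.326).

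**Figure D2:**
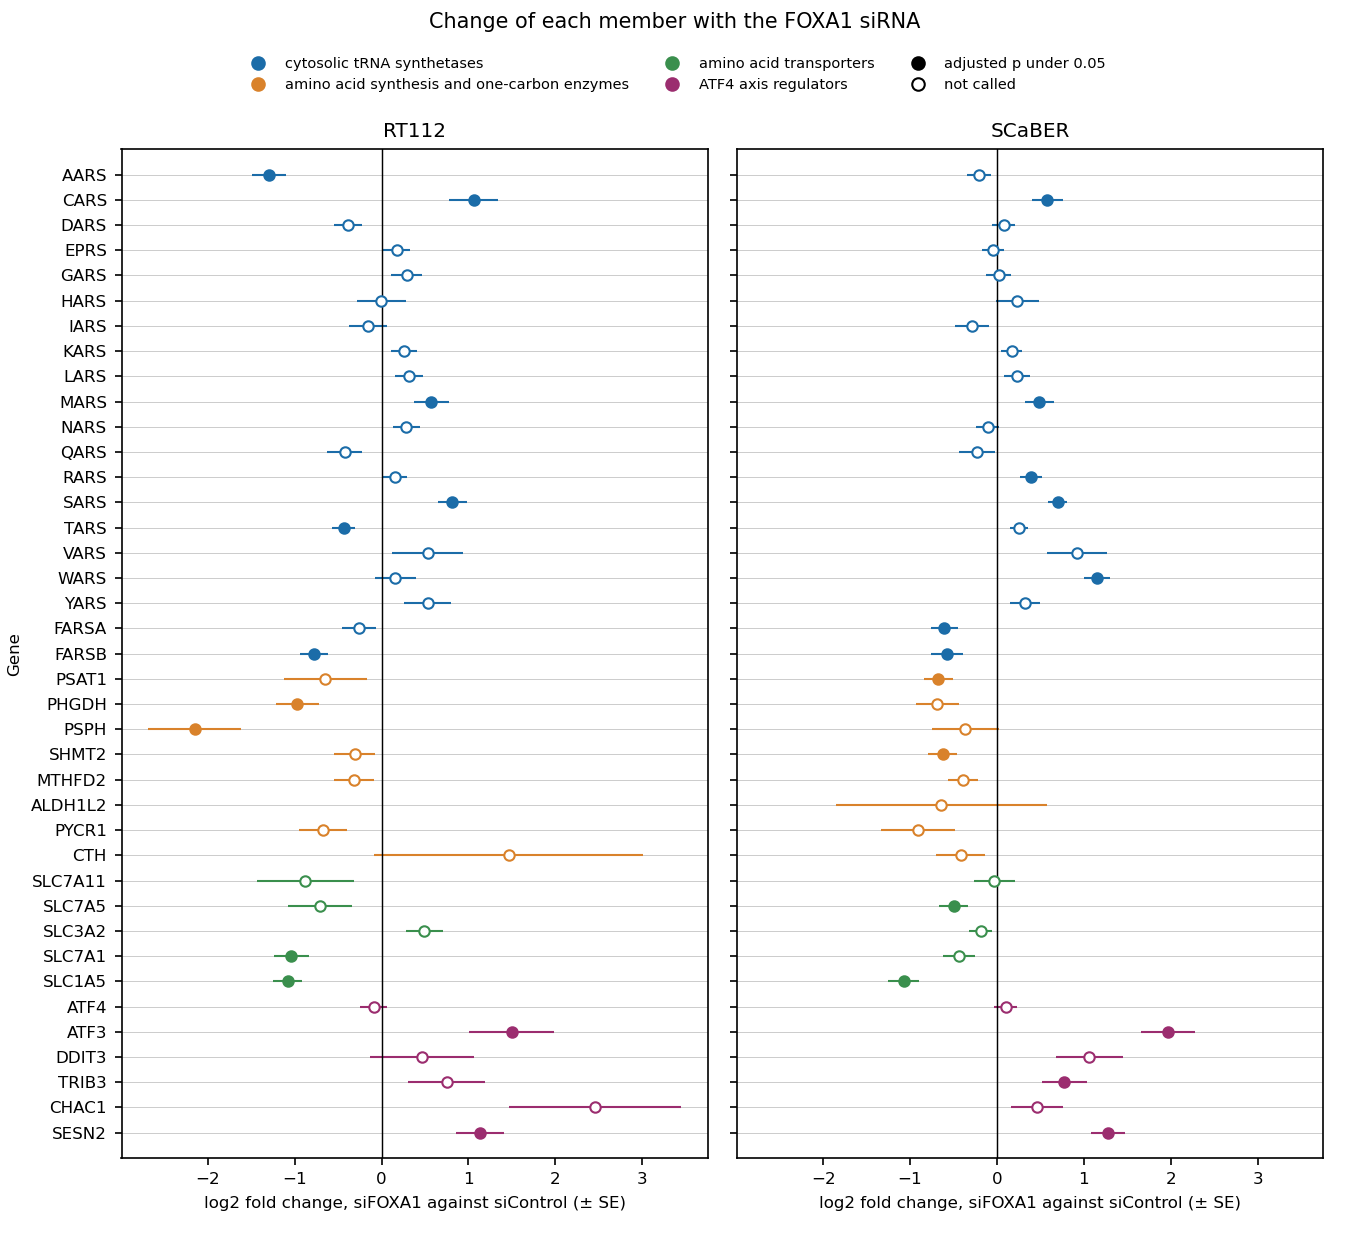
Log2 fold change of siFOXA1 against siControl for each tested member, with its standard error, in RT112 (left) and SCaBER (right), 2 libraries a group. Filled points passed an adjusted p of 0.05. Transporters and enzymes lie mostly left of 0 and ATF4 axis genes right of it, with AARS filled in RT112 and WARS in SCaBER.

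Across the lines, which share no library, 7 members were called in both and all 7 in the same direction: CARS, MARS, SARS, ATF3 and SESN2 higher, FARSB and SLC1A5 lower. They are 58.3% of the RT112 calls and 50% of the SCaBER calls, and among all genes tested in both lines these shares were 41.4% and 54.1%. The calls depended on single libraries. In RT112 the count was 9 to 11 with any 1 library left out, and AARS, FARSB, SARS, SLC1A5 and SLC7A1 were called in all 4 such fits. In SCaBER it was 8 without the second siControl library and 9 without either siFOXA1 library, and ATF3, SARS, SESN2, SLC1A5 and WARS were called in all 4. With library totals alone as the scale, the split of higher to lower calls was 4 to 9 in RT112 and 5 to 8 in SCaBER. With limma on the deposited TPM it was 0 to 7 and 4 to 7.

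The FOXA1 siRNA was also given on both ZBED2 siRNA backgrounds. For SLC1A5 the fitted log2 fold change on siZBED2-1 was -1.04 ± 0.17 in RT112 and -0.73 ± 0.17 in SCaBER, and on siZBED2-2 it was -0.77 ± 0.16 and -0.62 ± 0.18. These single backgrounds are given as values, and the test was made on their average with siControl. Averaged over the 3 backgrounds, 7 members rose and 10 fell in RT112 (33.8% of all genes called), and 11 rose and 9 fell in SCaBER (24.1%). With library totals alone the SCaBER split was 7 to 10, and with limma on TPM it was 3 to 11 in RT112 and 4 to 10 in SCaBER. SLC1A5 fell by -0.96 ± 0.10 and -0.81 ± 0.10 (adjusted p = 1.64e-08 and 1.92e-07), SARS rose by 0.64 and 0.57, SESN2 by 1.00 and 1.02, and ATF3 by 1.22 and 0.89. The ATF3 change in SCaBER was unequal over the backgrounds. Its mean without and with the FOXA1 siRNA was 12.6 and 49.2 CPM on siControl. On siZBED2-1 it was 20.5 and 31.2 CPM, and on siZBED2-2 18.9 and 20.2 CPM. FARSB fell by -0.50 in RT112 and -0.53 in SCaBER. In RT112 AARS and PSPH fell (-0.68 and -1.29) and MARS, CARS and LARS rose (0.61, 0.77 and 0.35). In SCaBER WARS and RARS rose (0.76 and 0.30) and SHMT2 and PSAT1 fell (-0.45 and -0.42). Of the 5 transporters 4 fell in each line: in RT112 SLC7A11, SLC7A5, SLC7A1 and SLC1A5, and in SCaBER SLC7A5, SLC3A2, SLC7A1 and SLC1A5. SLC7A11 and SLC7A5 in RT112 and SLC3A2 in SCaBER lost the call in 2, 5 and 6 of 12 fits with a library left out. PHGDH fell in both (-0.56 ± 0.14 and -0.67 ± 0.14). TARS fell in RT112 (-0.21 ± 0.08) and rose in SCaBER (0.22 ± 0.06), and its RT112 call held in 2 of 12 fits that left out a library. In SCaBER the average for CTH was 0.47 ± 0.17, a call that held in 4 of 12, and it mixes directions. Mean CTH was lower with the FOXA1 siRNA on siControl (43.5 and 32.6 CPM without and with it). It was higher with it on siZBED2-1 (13.9 and 34.3 CPM) and on siZBED2-2 (16.0 and 22.7 CPM). With the block YARS was called higher in SCaBER too (0.24, adjusted p = 0.0481). Calls that held in all 12 numbered 13 in each line. The sign was the same on all 3 backgrounds for 19 of 38 members in RT112 (all genes 54.1%) and for 27 of 39 in SCaBER (all genes 47.7%), a description, since the backgrounds are fitted together.

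With siZBED2-1 members of all 4 roles rose in SCaBER. On siControl 11 of 39 members were higher and 2 lower, where 4.65% of all 13129 genes were called, 2.19% higher and 2.45% lower. On siFOXA1, in 4 other libraries, 11 of 39 were higher and 0 lower, where 2.73% were called, 1.35% higher and 1.39% lower. The members' median log2 fold change was 0.41 on siControl and 0.29 on siFOXA1. AARS, PSAT1, SHMT2, SLC7A5, SLC3A2, SLC7A1, SLC1A5 and CHAC1 were called higher on both backgrounds, 61.5% of the first list and 72.7% of the second, against 16.7% and 28.4% for all genes called in the same direction on both. Of 8 basal markers 5 rose on siControl and 3 on siFOXA1 (sums of 5248 to 5255 against 3292 to 3463 CPM and 4437 to 4910 against 3292 to 3459 CPM), and their part in the result was not tested. The 8 members called on both are a synthetase, 2 enzymes of serine and glycine synthesis, 4 transporters and CHAC1. ATF4 mRNA had 240 and 239 CPM under siControl and 274 and 332 CPM under siZBED2-1 (0.34 ± 0.13, adjusted p = 0.158).

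Of the 5 transporters, 4 were called on each background. SLC1A5 had 119 and 142 CPM under siControl and 219 and 238 CPM under siZBED2-1 (0.81 ± 0.17, adjusted p = 0.00288), and 63.4 and 60.8 CPM under siFOXA1 and 124 and 153 CPM under siFOXA1+siZBED2-1 (1.15 ± 0.18, adjusted p = 0.000106). The siFOXA1+siZBED2-1 libraries and the siControl libraries overlapped. SLC7A5 had 127 and 139 CPM against 226 and 186 CPM on siControl (0.63 ± 0.16, adjusted p = 0.0139) and 106 and 82.1 CPM against 177 and 196 CPM on siFOXA1 (0.99 ± 0.16, adjusted p = 0.000221). SLC3A2 rose by 0.53 and 0.61 and SLC7A1 by 0.74 and 0.68. In SLC7A11 the values were 37.2 and 57.1 CPM against 56.2 and 78.9 CPM on siControl and 49.1 and 43.1 CPM against 92.7 and 63.2 CPM on siFOXA1 (adjusted p = 0.247 and 0.0779, the latter 0.0359 with the block). On siControl SLC7A5, SLC3A2 and SLC7A1 were not called without the first siControl (0.58, 0.47 and 0.70) or the first siZBED2-1 library (0.50, 0.55 and 0.73), nor the last 2 of these without the second siZBED2-1 library (0.52 and 0.77). On siFOXA1 SLC7A1 passed in no fit that left out 1 of its 4 libraries (0.63 to 0.73), and SLC3A2 was lost without the second siFOXA1+siZBED2-1 library (0.52).

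Among the enzymes PSAT1 and SHMT2 rose on both backgrounds. PSAT1 had 97.3 and 111 CPM against 175 and 160 CPM on siControl (0.68 ± 0.16, adjusted p = 0.00750) and 56.9 and 74.2 CPM against 147 and 174 CPM on siFOXA1 (1.29 ± 0.17, adjusted p = 5.19e-06). SHMT2 had 93.7 and 97.8 CPM against 159 and 181 CPM (0.83 ± 0.16, adjusted p = 0.000920) and 64.4 and 59.7 CPM against 108 and 131 CPM (0.95 ± 0.16, adjusted p = 0.000466). MTHFD2, the mitochondrial folate enzyme that follows SHMT2, rose on siFOXA1 (0.85 ± 0.17, adjusted p = 0.00312), and was not called without the first siFOXA1 library (0.69). PSAT1 was not called on siControl without the first siControl or first siZBED2-1 library (0.60 and 0.63). CTH went the other way. It fell from 46.5 and 40.5 CPM under siControl to 17.8 and 9.91 CPM under siZBED2-1 (-1.65 ± 0.30, adjusted p = 0.000470), a call that held without any single library. On siFOXA1 it had 27.7 and 37.4 CPM against 40.9 and 27.8 CPM (adjusted p = 0.947), and these groups overlapped.

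Of the synthetases AARS rose on both backgrounds, from 225 and 221 CPM to 359 and 315 CPM on siControl (0.60 ± 0.13, adjusted p = 0.00520) and from 210 and 177 CPM to 280 and 299 CPM on siFOXA1 (0.58 ± 0.13, adjusted p = 0.0107). GARS, the glycine synthetase, and FARSA were called on siFOXA1 (0.59 ± 0.14 and 0.66 ± 0.15), and CARS on siControl (0.64 ± 0.18). Whether siZBED2-1 acts unequally on the 2 backgrounds was not tested for this siRNA alone. DARS, the aspartate synthetase, fell on siControl, from 265 and 273 CPM to 197 and 189 CPM (-0.48 ± 0.13, adjusted p = 0.0270). The other 15 of 20 synthetases, among them EPRS, KARS, LARS and NARS, were called on neither background. With the block TARS, 1 of those 15, passed on siControl (0.32, adjusted p = 0.0246), as did GARS (0.41, adjusted p = 0.0492). AARS was lost on siControl without the first siZBED2-1 library (0.51, adjusted p = 0.101) and on siFOXA1 without the second siFOXA1 or second siFOXA1+siZBED2-1 library (0.46 and 0.53). CARS was lost without the first siControl or first siZBED2-1 library (0.53 and 0.46), GARS without the second siFOXA1 or second siFOXA1+siZBED2-1 library (0.56 and 0.43), FARSA without the second siFOXA1 or first siFOXA1+siZBED2-1 library (0.51 and 0.59), and DARS in each of the 4 fits (-0.44 to -0.50).

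Of the 6 regulators 3 were called on siControl and 1 on siFOXA1. CHAC1 had 12.3 and 14.6 CPM against 37.4 and 42.2 CPM (1.57 ± 0.29, adjusted p = 0.000625), and on siFOXA1 15.1 and 22.0 CPM against 43.5 and 41.3 CPM (1.20 ± 0.29, adjusted p = 0.0138). SESN2 went from 38.9 and 35.7 CPM to 70.2 and 75.1 CPM (0.96 ± 0.20, adjusted p = 0.00242), and from 105 and 75.5 CPM to 115 and 112 CPM on siFOXA1 (adjusted p = 0.471). TRIB3 rose on siControl by 0.94 ± 0.25 (adjusted p = 0.0225), but not without the second siControl or second siZBED2-1 library (0.61 and 0.73). Leaving out 1 library changed these counts by more than 1.5 times. On siControl the 13 calls became 6 without the first siZBED2-1 library and 7 without the first siControl library, and CHAC1, CTH, SESN2, SHMT2 and SLC1A5 held in all 4 fits. On siFOXA1 the 11 calls became 6 without the second siFOXA1+siZBED2-1 library and 7 without the second siFOXA1 library, and PSAT1, SHMT2, SLC1A5 and SLC7A5 held in all 4. CHAC1 was not called on siFOXA1 without the first siFOXA1 library (0.94, adjusted p = 0.166) or either siFOXA1+siZBED2-1 library (1.16 and 1.23).

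**Figure D3:**
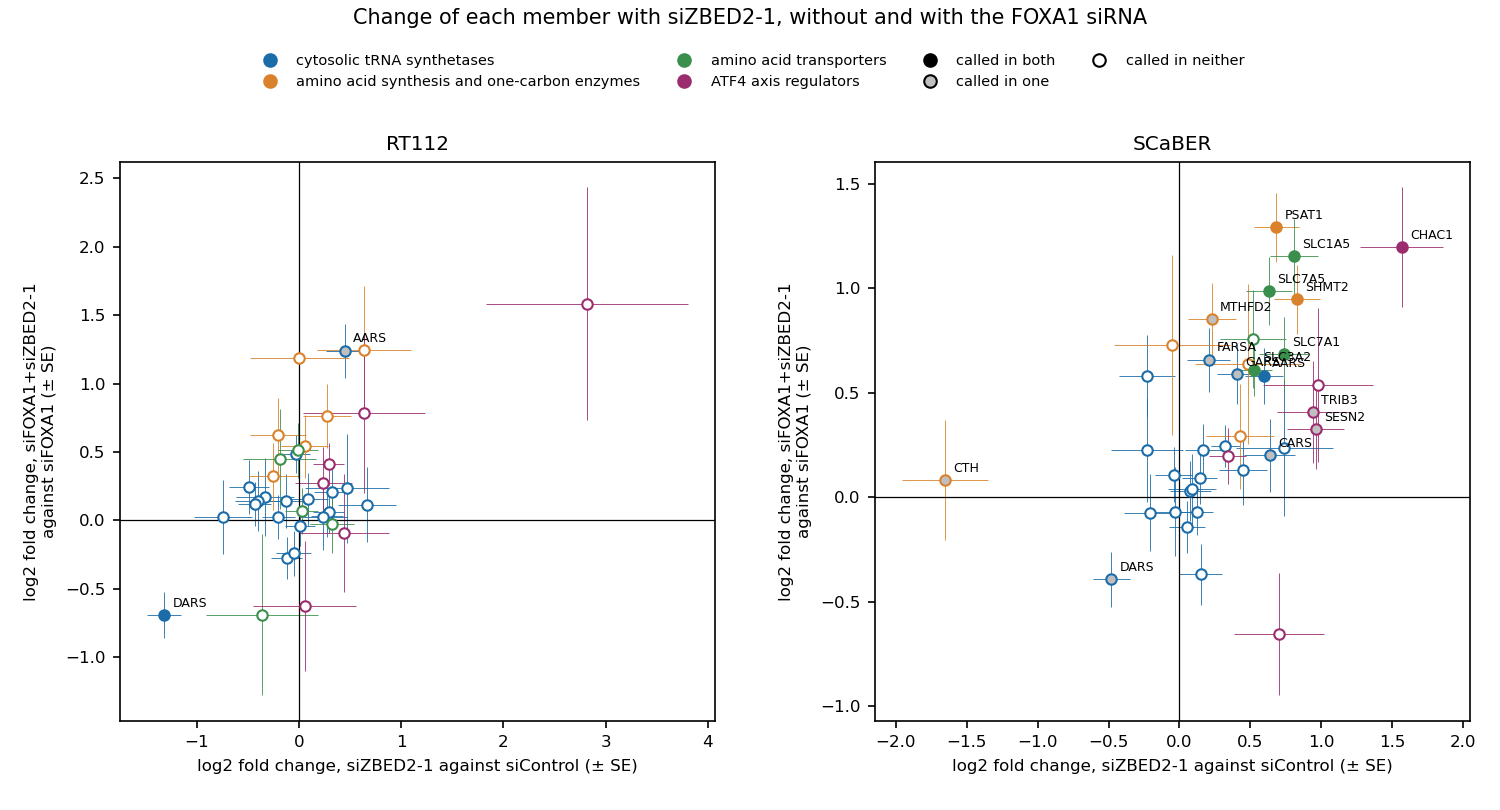
Log2 fold change with siZBED2-1 on siControl (horizontal) and on siFOXA1 (vertical), each with its standard error, in RT112 (left) and SCaBER (right); the 2 axes share no library, and ALDH1L2 and, in RT112, CTH are left out for low counts. Named points were called on at least 1 background and filled ones on both. The 8 filled SCaBER genes lie in the upper right, while in RT112 DARS alone is filled, in the lower left.

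In RT112 1 member was called with siZBED2-1 on siControl, where 8.8% of all genes were called, and 2 on siFOXA1, where 2.55% were called. DARS was called on both. It went from 176 and 156 CPM to 64.0 and 69.5 CPM on siControl (-1.32 ± 0.17, adjusted p = 7.11e-06), a call that held without any single library, and from 129 and 126 CPM to 89.0 and 68.4 CPM on siFOXA1 (-0.69 ± 0.17, adjusted p = 0.0210). With siZBED2-2 on siControl DARS had 163 and 171 CPM. AARS rose on siFOXA1, from 39.6 and 29.2 CPM to 87.3 and 75.7 CPM (1.24 ± 0.20, adjusted p = 0.000617), against 83.1 and 85.7 CPM under siControl. On siControl AARS had 121 and 110 CPM with siZBED2-1 (0.45 ± 0.19, adjusted p = 0.151). CHAC1 had 2 and 5 counts under siControl and 27 and 21 under siZBED2-1 (adjusted p = 0.0782 by edgeR and 0.0389 by DESeq2). DARS lost its call on siFOXA1 without either siFOXA1 library (-0.68 and -0.72) or the second siFOXA1+siZBED2-1 library (-0.51, adjusted p = 0.341). With the replicate number as a block the counts were 2 on siControl, where YARS was added (-0.75, adjusted p = 0.0431), and 4 on siFOXA1, where SHMT2 and TARS were added (0.76 and 0.48).

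The log2 fold change with siZBED2-1, averaged over both backgrounds, was higher in SCaBER than in RT112 for DARS and SLC1A5, where 1.39% of all genes differed. For SLC1A5 the difference was 0.95 ± 0.18 (adjusted p = 0.00343), and it held in all 16 fits that left out a library. For DARS, which fell less in SCaBER, it was 0.58 ± 0.14 (adjusted p = 0.0312), a call that held in 4 of 16, with 0.46 without the second RT112 siFOXA1+siZBED2-1 library, while 4 members were called without the first. This comparison was added after the values had been seen.

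With siZBED2-2 on siControl 1 member was called over both lines. In RT112 0 of 38 members were called by edgeR and by DESeq2, with 3 at an unadjusted p under 0.05 (VARS, SLC3A2 and ATF4), where 0.166% of all genes were called. In SCaBER CTH was called, from 46.5 and 40.5 CPM to 14.0 and 17.9 CPM (-1.44 ± 0.30, adjusted p = 0.00913), where 0.625% of all genes were called. That call was lost without the first siControl or the first siZBED2-2 library (-1.33 and -1.27). On siFOXA1 AARS rose in RT112, from 39.6 and 29.2 CPM to 66.9 and 68.3 CPM (0.97 ± 0.20, adjusted p = 0.0128), the 1 call where 1.25% of all genes were called. Without the second siFOXA1 library it was 0.77 (adjusted p = 0.263) and without the second siFOXA1+siZBED2-2 library 0.96 (adjusted p = 0.0619), while without the first siFOXA1 library 4 members were called. With the block PSPH was called as well (2.03, adjusted p = 0.0300). On siFOXA1 in SCaBER, FARSA and SHMT2 rose (0.58 and 0.57) and WARS and ATF3 fell (-0.67 and -1.28), 4 calls where 3.66% of all genes were called. WARS went from 343 and 407 CPM to 209 and 263 CPM, and ATF3 from 44 and 54.4 CPM to 15.9 and 24.5 CPM. The 4 calls became 0 without the first siFOXA1+siZBED2-2 library (WARS -0.51, ATF3 -0.9989) or the second siFOXA1 library (WARS -0.54, ATF3 -1.12) and 2, WARS and ATF3, without the second siFOXA1+siZBED2-2 library. With the block SLC7A1 was called too (0.58, adjusted p = 0.0439).

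The ZBED2 siRNAs were also compared directly, a comparison added after the values had been seen, and in SCaBER they differed. With siZBED2-1 9 members were higher than with siZBED2-2 on siControl and 6 on siFOXA1, with 0 lower on either, where 4.01% and 1.49% of all genes were called, 1.61% and 0.427% higher and 2.4% and 1.07% lower. AARS, SLC1A5, CHAC1 and SLC7A11 were called on both backgrounds, with TARS, SHMT2, ATF4, TRIB3 and SESN2 on siControl and PSAT1 and SLC7A5 on siFOXA1. SLC7A11 had 56.2 and 78.9 CPM against 29.7 and 38.4 CPM (0.99 ± 0.24, adjusted p = 0.0105) and 92.7 and 63.2 CPM against 33.9 and 32.7 CPM (1.23 ± 0.24, adjusted p = 0.00320). CHAC1 had 37.4 and 42.2 CPM against 15.3 and 19.1 CPM (1.21 ± 0.28) and 43.5 and 41.3 CPM against 11.5 and 14.2 CPM (1.72 ± 0.29). ATF4 mRNA was higher with siZBED2-1 than with siZBED2-2 on siControl in SCaBER (0.54 ± 0.13, adjusted p = 0.0128) and in RT112 (0.64 ± 0.16, adjusted p = 0.00977). Without the second siZBED2-1 library the 9 SCaBER calls became 2, AARS and SLC1A5, and without the first siZBED2-2 library they became 4. ATF4 in SCaBER had 0.39 and 0.40 in these fits (adjusted p = 0.291 and 0.239), and in RT112 it passed without the second siZBED2-2 library only. On siFOXA1 the 6 became 2, SLC7A11 and CHAC1, without the second siFOXA1+siZBED2-1 library and 3 without the first, where SLC7A11 had 0.92 (adjusted p = 0.136). With the block GARS was added on siControl and SLC3A2, TARS and TRIB3 on siFOXA1. In RT112 the siRNAs differed in 4 members on siControl (7.77% of all genes), DARS, YARS and FARSB lower with siZBED2-1 (-1.32, -0.94 and -0.67) and ATF4 higher, and in 3 on siFOXA1 (1.79%), DARS lower and GARS and TARS higher (-0.93, 0.79 and 0.56). Those 3 became 0 without the second siFOXA1+siZBED2-1 library and 1, DARS, without any other. With the block the first count was 7, with CARS, FARSA and SLC7A5 added, and ATF4 was added to the second. Without the second siZBED2-1 library the first count was 1, DARS. ZBED2 itself was lower with siZBED2-1 than with siZBED2-2 on siFOXA1 in SCaBER (-1.99, adjusted p = 0.0328) and had -1.34 on siControl (adjusted p = 0.106), and its part in the result was not tested.

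**Figure D4:**
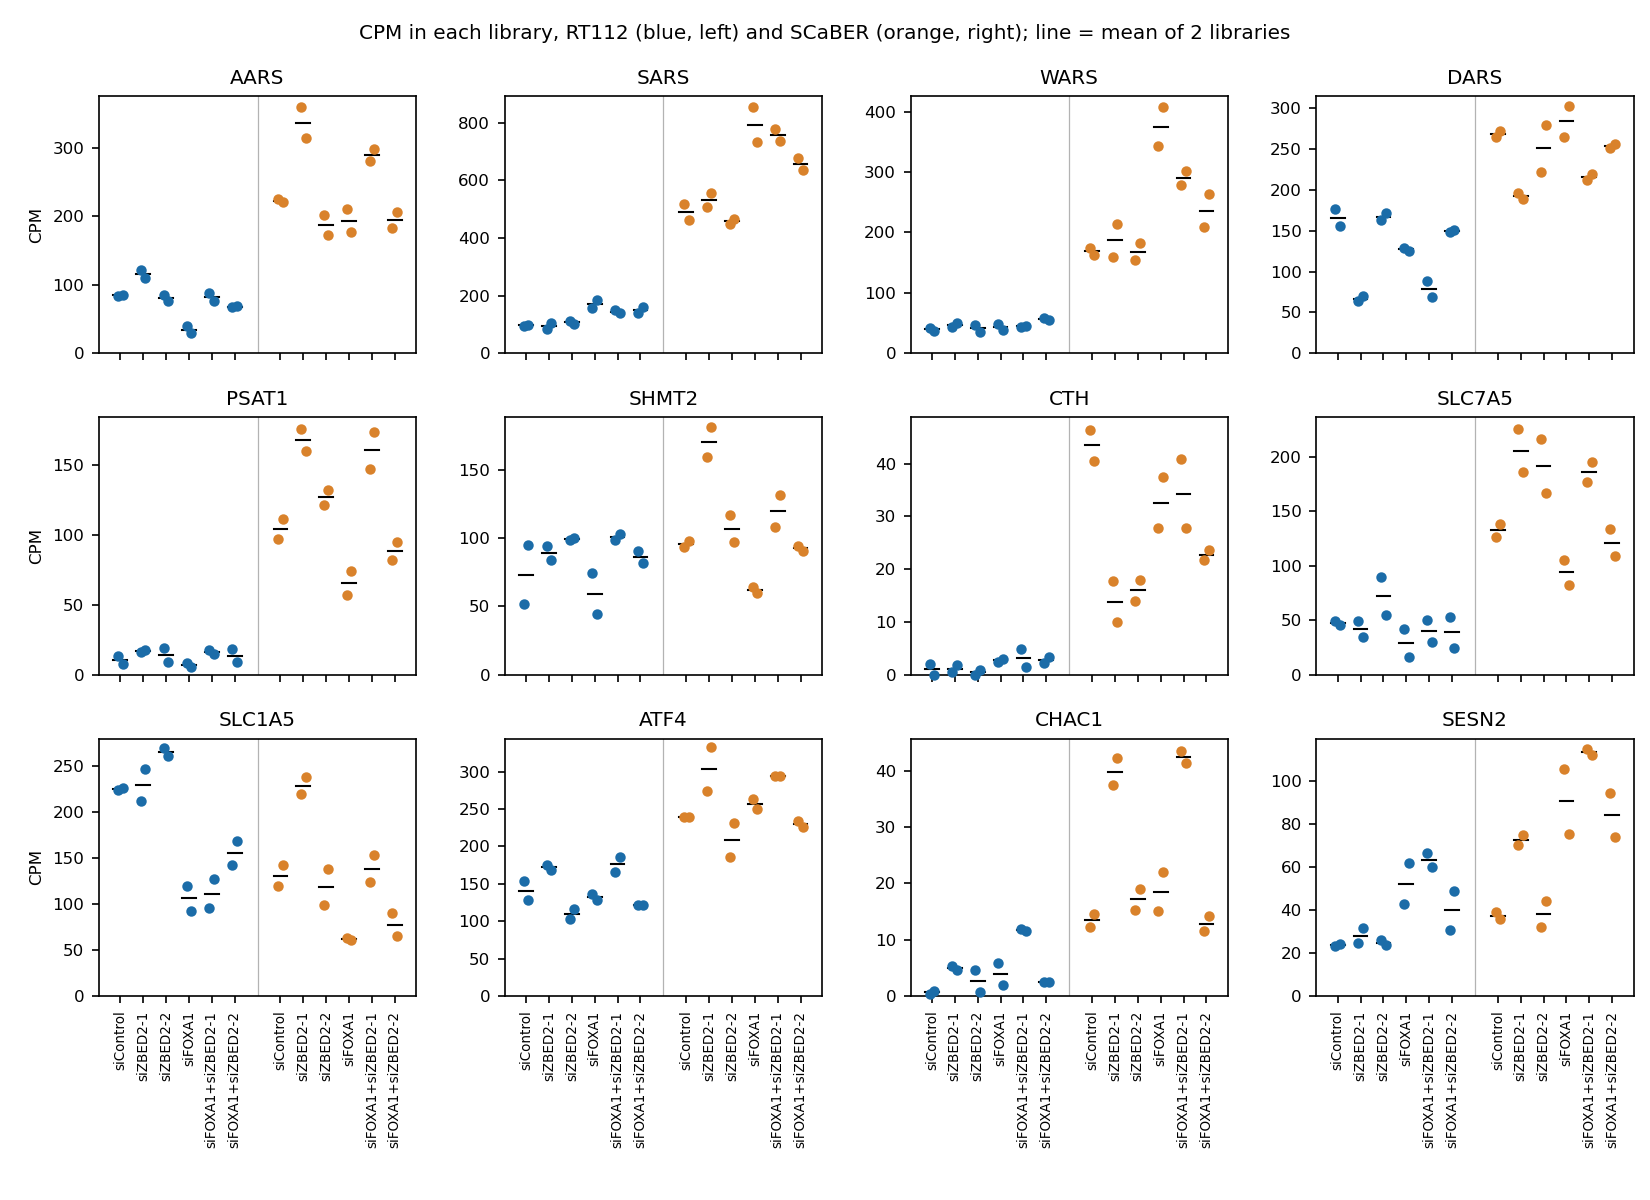
CPM of 12 members in each library (points) with the mean of 2 libraries (line), in RT112 (blue) and SCaBER (orange) by treatment. In SCaBER, SLC1A5, PSAT1 and SHMT2 are lowest with siFOXA1 and near siControl or above with siFOXA1+siZBED2-1, while CTH is low with either ZBED2 siRNA on siControl.

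Whether the siRNA pairs add up was tested as an interaction, the mean ZBED2 siRNA change on siFOXA1 minus that on siControl. In RT112 0 of 38 members were called by edgeR, with 4 at an unadjusted p under 0.05, where 0.611% of all genes were called. AARS came nearest (0.91 ± 0.24, adjusted p = 0.0755) and was the 1 call by DESeq2 (0.90, adjusted p = 0.0153) and with the block (0.92, adjusted p = 0.0288). In SCaBER 2 of 39 were called, where 2.29% of all genes were. CTH had 1.33 ± 0.36 (adjusted p = 0.0385). Its means were 43.5 CPM under siControl, 13.9 CPM with siZBED2-1 and 16.0 CPM with siZBED2-2. Under siFOXA1 the mean was 32.6 CPM, with 34.3 CPM when siZBED2-1 was added and 22.7 CPM when siZBED2-2 was added. CTH was called with either ZBED2 siRNA on siControl and with neither on siFOXA1. ATF3 had -1.62 ± 0.38 (adjusted p = 0.0115), with 11.3 and 13.8 CPM under siControl, 14.2 to 24.4 CPM under the ZBED2 siRNAs, 44 and 54.4 CPM under siFOXA1 and 15.9 to 33.4 CPM in the double knock-downs. With the block WARS and FARSA were called too (-0.58 and 0.61). The 2 calls became 0 without the first siControl library (CTH 1.22, ATF3 -1.49). ATF3 was also lost without the second siFOXA1 library (-1.47), and CTH without the second siControl, first siZBED2-2, second siZBED2-1, first siFOXA1 or first siFOXA1+siZBED2-1 library (1.12 to 1.41). In RT112 the count was 1 without the first siFOXA1 library and 0 without any other.

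Upstream of ATF4 stand genes of the integrated stress response. Of 10 kinases, phosphatase subunits and helpers, siFOXA1 raised 2 in RT112, PPP1R15A (1.23), the stress-induced subunit that removes phosphate from eIF2, and EIF2AK2 (0.70), the RNA-sensing kinase PKR. In SCaBER it raised 3, EIF2AK2 (1.40), PPP1R15A (1.12) and PPP1R15B, and lowered EIF2AK1 (-0.54), the heme-regulated kinase. All genes were called at 23.3% in RT112 and 17.8% in SCaBER, so the RT112 count of 2 in 10 is near the background. PPP1R15A also rose with siZBED2-1 on siControl in both lines (0.93 in RT112 and 0.76 in SCaBER).

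Of 20 further ATF4 targets and partners, 16 were tested in each line. With siFOXA1 1 rose and 4 fell in RT112, led by DDIT4 (-2.13), GDF15 (2.70) and EIF4EBP1 (-3.48), and 1 rose and 5 fell in SCaBER, led by CEBPD (-0.94), EIF4EBP1 (-2.07) and CEBPG (-1.25). These are 5 and 6 of 16, against 23.3% and 17.8% of all genes. EIF4EBP1 encodes a repressor of cap-dependent translation and CEBPG a partner of ATF4. With siZBED2-1 on siControl GDF15, a stress cytokine, rose in both lines (2.09 in RT112 and 1.97 in SCaBER), DDIT4 fell in RT112 (-0.64) and STC2 rose in SCaBER (0.78). On siFOXA1 in SCaBER 4 of 16 rose with siZBED2-1 and 0 fell, against 2.73% of all genes called.

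The mitochondrial tRNA synthetases, which nuclear genes encode apart from the cytosolic set, were read beside them. With siFOXA1 FARS2 rose in RT112 (1.07), while 0 of 17 listed were called in SCaBER by edgeR, with 2 at an unadjusted p under 0.05. Of all genes 23.3% were called in RT112 and 17.8% in SCaBER. VARS2, 1 of the 17, had only 0 to 15 counts in any library. With siZBED2-1 on siControl 0 were called in either line by edgeR, with 0 in RT112 and 1 in SCaBER at an unadjusted p under 0.05, and on siFOXA1 CARS2 rose in SCaBER (1.03). The shares of all genes called with siZBED2-1 were 8.8% in RT112 and 4.65% in SCaBER on siControl. On siFOXA1 in SCaBER the share was 2.73%. Among 3 scaffolds of the multi-synthetase complex AIMP1 rose and AIMP2 fell with siFOXA1 in SCaBER (0.80 and -0.74).

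WARS was read beside interferon-gamma targets, of which only GBP1 and PSMB9 are given here. In SCaBER siFOXA1 raised GBP1 (1.74), a guanylate-binding protein, and PSMB9 (1.01), a subunit of the immunoproteasome, and WARS by 1.16. In RT112, where WARS was not called, GBP1 had 255 and 385 counts under siControl and 316 and 314 under siFOXA1. PSMB9 had 44 and 24 counts there against 105 and 16. On siFOXA1 in SCaBER, siZBED2-1 lowered PSMB9 (-0.77) and GBP1 (-0.59), with WARS at 279 and 301 CPM against 343 and 407 CPM. Whether WARS and these genes share a cause was not tested.

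CTH was compared with all genes tested in both lines, over 24 libraries after each line was centred on its mean. RBM4 was most alike (Pearson r = 0.836), then MRPL46 (0.791), SELENOH (0.776), CTTNBP2NL (0.751) and ATP6V0A1 (0.751). These are descriptions, and the libraries share the treatments. CTH had only 0 to 23 counts in the 12 RT112 libraries, and their weight in this ranking was not tested. ASNS was not tested in either line and has no such list.

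The members left to account for are those with few calls. HARS, IARS, VARS and DDIT3 passed edgeR's test without the block in no comparison given here, nor did ALDH1L2, with 3 to 30 counts in SCaBER. EPRS, KARS, NARS and QARS passed in the comparison of the lines under siControl and in no siRNA comparison. Over the 12 libraries of a line EPRS, which charges glutamate and proline, ran from 157 to 208 CPM in RT112 and from 303 to 404 CPM in SCaBER, so that the lines did not overlap. DDIT3 ran from 2.86 to 12.1 CPM in RT112 and from 7.18 to 31 CPM in SCaBER.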

How the data were processed

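The authors deposited raw counts, whole numbers of reads per gene, and TPM. Per the labels and deposited settings, TrimGalore 0.6.2 trimmed the reads (quality cutoff 20, shortest read 10), and STAR 2.6.1a mapped and counted them against hg38 with GENCODE 29. Strand was inferred by the pipeline. The study's methods name hg19 instead. The tool behind the deposited TPM is not given in the sources used here, and length scaling does not suit 3′ reads, so counts were tested.

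The 12 libraries of a line were fitted together with edgeR 4.0.16 in R 4.3.3 (quasi-likelihood F-test, TMM, filterByExpr by group with a minimum count of 10), a mean per group, and p-values adjusted over 13264 or 13129 genes. Lines were compared in a fit of all 24 libraries (14823 genes). SE is the size of the log2 fold change over the square root of F. Biological coefficients of variation were 25.8%, 21.6% and 24.5%. The procedure was tested on data simulated for RT112 alone, with large fold changes and the same dispersion for each gene. That test does not speak to small fold changes. Members and lists were chosen with earlier results of these data known. All members are accounted for, and in a comparison all called members or the 12 of smallest p are named. Labels pair libraries by batch number. Deviations of same-numbered libraries correlated at 0.0339 (RT112) and 0.0261 (SCaBER) on average over 15 pairs of groups each, and no pair exceeded 0.1. No 2 libraries were copies (chi-square per gene at least 6.24 over 276 pairs). Alternatives used DESeq2 1.42.0, limma 3.58.1 on log2(TPM + 1), other scalings, no filter, a block and each library left out. Promoters are from RefSeq on GRCh38.p14, and 9 members had none. Adapter, index and settings files hold no expression values. Some genes of the context lists are not reported here.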

Additional observations from a re-analysis of the deposited data

Results flagged for a closer look

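For the results below the difference between lines or between backgrounds was itself tested in the edgeR fit and passed an adjusted p of 0.05. The signed log2 fold change with siFOXA1 was higher in SCaBER than in RT112 (less negative for AARS, which fell in RT112) for AARS by 1.09 ± 0.22 (adjusted p = 0.00389), for TARS by 0.69 ± 0.16 (adjusted p = 0.0102) and for WARS by 1.00 ± 0.25 (adjusted p = 0.0226). Without the second RT112 siFOXA1 library 0 of these 3 passed by edgeR, with AARS at 0.89 (adjusted p = 0.0613). The siZBED2-1 fold change averaged over both backgrounds, a comparison added after the data had been seen, was higher in SCaBER as a signed log2 value for SLC1A5 by 0.95 ± 0.18 (adjusted p = 0.00343) and, being less negative, for DARS by 0.58 ± 0.14 (adjusted p = 0.0312), and SLC1A5 alone passed with each library left out. In SCaBER the ZBED2 siRNA change differed between siFOXA1 and siControl for CTH by 1.33 ± 0.36 (adjusted p = 0.0385) and for ATF3 by -1.62 ± 0.38 (adjusted p = 0.0115). CTH passed in 6 and ATF3 in 10 of the 12 fits that left out 1 library. Groups of 2 libraries were too small for a search for outlying samples.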

How the results depend on the processing

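With RLE size factors no count of called members moved by over 1.5 times. With library size alone the siZBED2-1 line difference went from 2 to 1. Without a filter on low counts the count was 1 for siZBED2-2 in RT112 (SLC3A2), 2 for siFOXA1+siZBED2-2 against siFOXA1 in RT112, 1 for the RT112 interaction and 1 for the siZBED2-1 line difference. DESeq2 gave 2 for siZBED2-1 and 3 for siFOXA1+siZBED2-2 against siFOXA1 in RT112, 1 for the RT112 and 4 for the SCaBER interaction, 10 for siFOXA1+siZBED2-1 against siFOXA1+siZBED2-2 in SCaBER, and 4 for the siZBED2-1 line difference. With the replicate block the counts in RT112 were 2 for siZBED2-1, 4 and 2 for siZBED2-1 and siZBED2-2 on siFOXA1, 1 for the interaction and 7 for siZBED2-1 against siZBED2-2, and 4 for the SCaBER interaction. The block moved no other count by over 1.5 times, and each single call it changed stands in the report. On TPM limma called 7 for siFOXA1 in RT112, 0 for either ZBED2 siRNA on siFOXA1, 1 and 0 for siZBED2-1 against siZBED2-2 on siControl and siFOXA1. In SCaBER it called 4 for siZBED2-1, 0 for siZBED2-2, 7 and 1 for siZBED2-1 and siZBED2-2 on siFOXA1, 0 for the interaction, 3 and 1 for siZBED2-1 against siZBED2-2 on siControl and siFOXA1, and 0 for the siZBED2-1 line difference. The cause was not tested for any of these.

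With 1 library left out, the lone library of a group is assumed to vary like the other groups. In RT112 the counts ran from 9 to 11 for siFOXA1, 14 to 18 for FOXA1 siRNA averaged over backgrounds, 1 to 1 for siZBED2-1, 0 to 1 for siZBED2-2, 1 to 2 and 0 to 4 for siZBED2-1 and siZBED2-2 on siFOXA1, 0 to 1 for the interaction, and 1 to 3 and 0 to 1 for siZBED2-1 against siZBED2-2 on siControl and siFOXA1. In SCaBER they ran from 8 to 11, 14 to 19, 6 to 11, 0 to 1, 6 to 9 and 0 to 3, 0 to 3, and 2 to 10 and 2 to 4 in the same order. For the lines they ran from 22 to 24 under siControl, 0 to 4 for siFOXA1 and 1 to 4 for siZBED2-1.

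Over members called as reported, and ATF4, CTH, CHAC1, WARS and SLC7A11 also where not called with siFOXA1 or siZBED2-1 on siControl, there were 2038 values under an alternative. Of these, 1688 kept their direction and side of the threshold, 336 lost the call, 3 gained it and 11 changed sign. All 11 were of members not called, and calls gained by members outside this set are not counted. With siFOXA1 in RT112 they were ATF4 (-0.21 to 0.043 with a library left out) and WARS (-0.013 to 0.32, and -0.14 on TPM). With siFOXA1 in SCaBER they were ATF4 (-0.035 on TPM) and SLC7A11 (-0.31 to 0.31, with 0.060 without the second siFOXA1 library). With siZBED2-1 in RT112 they were CTH (-1.25 to 5.45, with -0.88 without the second siControl library) and SLC7A11 (-0.9983 to 0.089, with 0.075 without the first siZBED2-1 library), and in SCaBER WARS (-0.072 to 0.36).

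With 2 libraries a group, fold changes of members with under about 10 counts in a group, among them CTH and CHAC1 in RT112, were imprecise at this depth. DESeq2 called CHAC1 in RT112 with siFOXA1 and with siZBED2-1, and edgeR did not.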
